A study of Mus musculus with 6 samples.

Results

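Among the exonic regions with peaks in Ago2 immunoprecipitates of MSC myocytes, 1222 carried a seed site for the muscle microRNA miR-133, and these are the members described here. Peaks of 5 RISC-IP libraries were joined wherever they overlapped or touched, which gave 41363 intervals, of which 37548 lay over exons on a single strand. An interval was a member when its sequence on that strand held GGACCAA, the 7-mer complementary to bases 2 to 8 (the seed) of miR-133. Members were 3.25% of the exonic intervals (95% exact binomial interval 3.08 to 3.44%). The choice used sequence and position and no measured height. The 1222 members held 1259 sites, with 1 site in 1185 of them and 2 sites in 37.

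MicroRNAs are loaded into Argonaute proteins such as Ago2, the core of the RISC, and guide it to messenger RNAs mainly by pairing of the seed, most often in the 3'UTR. Pairing lowers translation and the stability of the target. The miR-133 family is made in skeletal and cardiac muscle from transcripts shared with miR-1 and miR-206, rises as myoblasts differentiate, and is known for repressing the splicing regulator PTB and factors of proliferation and of the actin cytoskeleton.

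MSC are primary mouse satellite cells, the stem cells of skeletal muscle. They were kept for 30 h in differentiation medium, transfected with 10 nM of miR-222 duplex or of a siGFP control duplex, and lysed 16 h later for immunoprecipitation with anti-Ago2 antibody. The dose is that of the labels, and the study's methods give a higher one. In experiment 1 there were 2 control-IPs (replicates 1 and 2) and 1 miR-222-IP (replicate 1), and in experiment 2 there were 2 control-IPs (replicates 3 and 4) and the other miR-222-IP, called replicate 2. Its title names another microRNA, miR-22, and the group was taken from the treatment label, which gives miR-222. Whether the libraries came from separate cultures or animals was not given in the sources used here, so differences between libraries may be technical. miR-133 itself was not manipulated, and all groups share the transfection. Control-IP replicate 3 was left out by the rule that chose the members, since its list held 3619 peaks with a median width of 32103 bp on 10 chromosomes. The lists used held 10579, 20000 and 17892 peaks for control-IP replicates 1, 2 and 4, and 21074 and 37762 for the 2 miR-222-IPs. Read depth is unknown from these lists. A peak's height is given as −log10 p, the evidence of the peak caller for an excess of reads, which depends on depth as well as on RNA bound, and the authors kept values of at least 20.

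The markers of the labelled cell type were weak in 4 of the libraries. All 13 skeletal muscle markers had an exonic interval, but with peaks for 9 to 11 of them the summed −log10 p was 356 to 594 in the control-IPs and in miR-222-IP replicate 1. In miR-222-IP replicate 2 all 13 had a peak and the sum was 1743. Myog, the myogenin gene, had its only peak there. The 4 leukocyte markers summed to 515 to 692 in all 5 libraries, without a peak for Ptprc in control-IP replicate 1. Adgre1, a macrophage receptor, stood at 219, 196 and 236 in the control-IPs and at 235 and 226 in the miR-222-IPs. Fibroblast markers reached at most 40.2 for 2 of 5 genes with an interval, endothelial markers 81.2 for 2 of 4, and adipocyte markers had no interval. What part the leukocyte RNA and the difference of miR-222-IP replicate 2 have in the results was not tested.

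The mature sequence of miR-133b, from RefSeq (GRCm38.p6, chr1:20682834-20682855, plus strand), is shown with its seed in capitals. Below it stand sites that the results turn on, read from the GRCm38 genome on the strand of the transcript, with the 7-mer in capitals and 11 bases on each side. The first group are 3'UTR sites in genes listed as miR-133 targets, the next are sites with further pairing or very high peaks, and the last are from splicing and muscle genes.
miR-133b-3p: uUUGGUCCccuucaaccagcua
Ppp2ca 3'UTR, chr11:52122096-52122102, plus strand: tgttttcacacGGACCAAaagatgtgcca
Msn 3'UTR, chrX:96166771-96166777, plus strand: gtatagccatgGGACCAAacttaatctcc
Lasp1 3'UTR, chr11:97838324-97838330, plus strand: ttaacttttgtGGACCAAccccataatgc
Dusp1 3'UTR, chr17:26506059-26506065, minus strand: cggcacattcgGGACCAAtatattgtggg
Tgfbr1 3'UTR, chr4:47412829-47412835, plus strand: tagaaatccagGGACCAAtgtattttatc
Cnn2 3'UTR, chr10:79995320-79995326, plus strand: attccctgtgtGGACCAAaaaaacaaaaa
Clta 3'UTR, chr4:44032666-44032672, plus strand: tgagttcttttGGACCAAaccttttgtct
Sp3 coding, chr2:72946617-72946623, minus strand: gatgaagaaggGGACCAAcaacatcaaga
Tmem164 3'UTR, chrX:142834937-142834943, plus strand: ccaccagaaggGGACCAAggccttgcttc
Myh9 3'UTR, chr15:77761199-77761205, minus strand: agcactctaggGGACCAAatatatttaat
Elavl1 3'UTR, chr8:4288864-4288870, minus strand: ccaatgagaacGGACCAAagagtttcagg
Ptbp3 3'UTR, chr4:59473176-59473182, minus strand: aaaacaaaacaGGACCAAagtttatgtgc
Lmod2 coding, chr6:24604063-24604069, plus strand: ttgagctcccaGGACCAAgaatgagtatg
Casq2 5'UTR, chr3:102086526-102086532, plus strand: acacagctgcaGGACCAAggaggtgaaag

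In 3'UTRs, the miR-133 seed 7-mer lay under a peak slightly more often than most 7-mers made of the same bases, and in coding sequence it did not. The exons of the 11803 genes with an exonic interval held GGACCAA 3534 times, of which 1005 were in 3'UTR bases and 1575 in coding bases. Of the 1005, 415 lay under an interval, or 41.3% (38.2 to 44.4%), against 37.0% of all 3'UTR bases. GGACCAA has 210 arrangements of its bases, and 100 of them lack the dinucleotide CG, which is scarce in mammalian genomes. Over these 100 the median was 37.8%, and the seed 7-mer ranked 2 of 100 (42 of 210 with CG included). In coding bases 558 of 1575 lay under an interval, or 35.4% (33.1 to 37.8%), which ranked 96 of 100 against a median of 37.5% (188 of 210).

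In each library taken alone the 3'UTR share of the 7-mer also lay above the median. Under the peaks of control-IP replicate 1 lay 14.5% of the 3'UTR 7-mers (median of the 100 7-mers 11.7%, rank 1), of control-IP replicate 2 19.4% (16.9%, rank 3) and of control-IP replicate 4 21.5% (18.1%, rank 1). For the miR-222-IPs the shares were 25.1% in replicate 1 (21.9%, rank 1) and 38.2% in replicate 2 (35.1%, rank 4). In the coding part the ranks in these libraries ran from 7 of 100 in control-IP replicate 1 to 82 of 100 in miR-222-IP replicate 2. The libraries read the same 1005 places, so the 5 ranks are not independent, and they describe and do not test. With the 7-mers that hold CG included, the 5 ranks were 34 to 49 of 210. The lower bound of each library's binomial interval (12.4, 17.0, 19.0, 22.4 and 35.2% in the order given) lay just above the median of the 100 7-mers without CG. Against the medians of all 210 (12.3, 17.3, 18.7, 22.6 and 36.0%) it lay above in control-IP replicates 1 and 4 and below in the others.

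**Figure D1:**
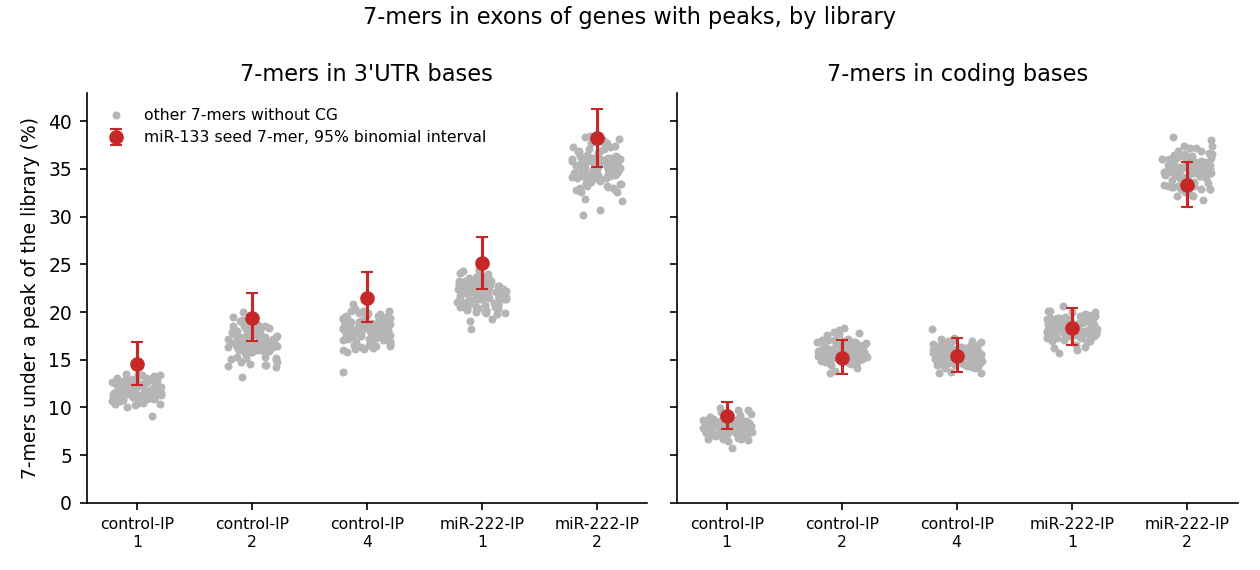
Percent of 7-mers in 3'UTR bases (left) and coding bases (right) of genes with peaks that lay under a peak of each library. Grey points are the other 7-mers of the same base composition without CG, and the red point with its 95% binomial interval is the miR-133 seed 7-mer, which stood at 14.5 to 38.2% in the 3'UTR, at or near the top of the points, and inside them in coding bases.

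The site is stronger when followed by an A, as GGACCAAA, since Argonaute holds an A opposite base 1 of the guide. In 3'UTRs 148 of 347 such 8-mers lay under an interval, or 42.7% (37.4 to 48.0%, rank 3 of 100 and 37 of 210), and 267 of 658 other sites did, or 40.6% (36.8 to 44.4%, rank 11 of 100 and 71 of 210), so the intervals of these shares overlapped. The 7-mer of miR-1 and miR-206, which share transcripts with miR-133, is ACATTCC. This 7-mer lay under an interval at 40.9% of 1361 places in 3'UTRs, rank 1 of its 210 arrangements. That of let-7, CTACCTC, stood at 37.7% (rank 79 of 105), and that of the transfected miR-222, ATGTAGC, at 36.2% (rank 373 of 630).

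How frequent miR-133 sites look among the exonic intervals depends on the 7-mers set beside them. Members made up 3.25%, above the median of 1.67% over all 210 7-mers (rank 91 of 210) and below the median of 4.92% over the 100 without CG (rank 91 of 100). On the strand opposite to the exons the 7-mer was in 2.43% of intervals, the lowest of the 100 (rank 100 of 210). The ratio of the strands was 1.34, against a median of 0.937, which ranked 4 of 100 and 23 of 210. In each of 10 strata of width the rank stayed between 83 and 96 of 100, and the share of members was 1.38 to 1.54% in the 3 narrowest strata (164 to 319 bp) and 9.08% in the widest (997 to 4198 bp). Members were wider than the other intervals, with a median of 656 bp against 370 bp.

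**Figure D2:**
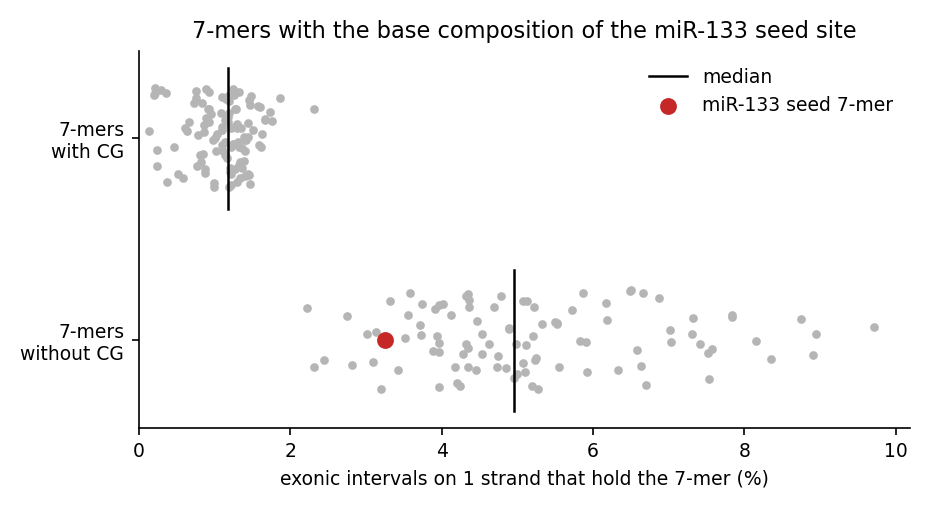
Percent of the 37548 exonic intervals that held each of the 210 7-mers with the bases of GGACCAA, split by the presence of CG, with vertical lines at the medians. The miR-133 seed 7-mer (red, 3.25%) lay low among the 7-mers without CG.

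The sites were divided over the transcript as follows. There were 567 sites in coding bases (45.0%), 415 in 3'UTRs (33.0%, interval 30.4 to 35.6%), 135 in non-coding exons (10.7%), 18 in 5'UTRs and 124 in intron bases covered by the same interval. The 3'UTR share ranked 13 of 100 against a median of 29.2%, and 13 of 210 against 24.0%. Members with a 3'UTR site had a median width of 1010 bp and those with a coding site 499 bp.

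The surroundings of the sites held slightly more A and U than those of most 7-mers compared. In the 15 bases on each side these made up 52.1% (51.4 to 52.7%), rank 7 of 100 against a median of 50.3% (10 of 210), and such context is known to favour repression by microRNAs. Of the sites, 418 were 8-mers (33.2%, rank 30 of 100 and 41 of 210). A match to bases 13 to 16 of the miRNA (GTTG within 20 bases upstream), which can add to seed pairing, was found at 60 sites, or 4.77% (rank 72 of 100 and 116 of 210). The sites lay about as near the middle of the intervals as other 7-mers of the same bases. Their mean distance from the centre, on a scale from 0 at the centre to 1 at the edge, was 0.455 (0.440 to 0.470), and over the 210 7-mers the median was 0.454.

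Members had a peak in most libraries more often than exonic intervals as a whole. In control-IP replicate 1, 451 of the 1222 members had a peak (36.9%), against 25.2% of all exonic intervals. In control-IP replicate 2 it was 696 (57.0%) against 46.5%, and in control-IP replicate 4 it was 662 (54.2%) against 43.6%. For the miR-222-IPs it was 753 (61.6%) against 51.6% in replicate 1, and 1159 (94.8%) against 92.2% in replicate 2. A peak in all 5 libraries was seen for 367 members (30.0%) against 19.5%.

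Most of that excess went with width. Over the 10 width strata the Mantel-Haenszel odds ratio of a peak, members against other intervals, was 1.15 (95% interval 1.02 to 1.31) in control-IP replicate 1, 1.09 (0.964 to 1.23) in replicate 2 and 1.07 (0.951 to 1.21) in replicate 4. For the miR-222-IPs it was 1.05 (0.924 to 1.18) in replicate 1 and 0.982 (0.755 to 1.28) in replicate 2. Among the 100 7-mers without CG these values ranked 2, 44, 10, 10 and 63, and among all 210 they ranked 22, 111, 51, 41 and 140. Without width strata they were 1.53 to 1.77. For a peak in all 5 libraries the ratio was 1.15 (1.01 to 1.31), rank 5 of 100 and 35 of 210.

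**Figure D3:**
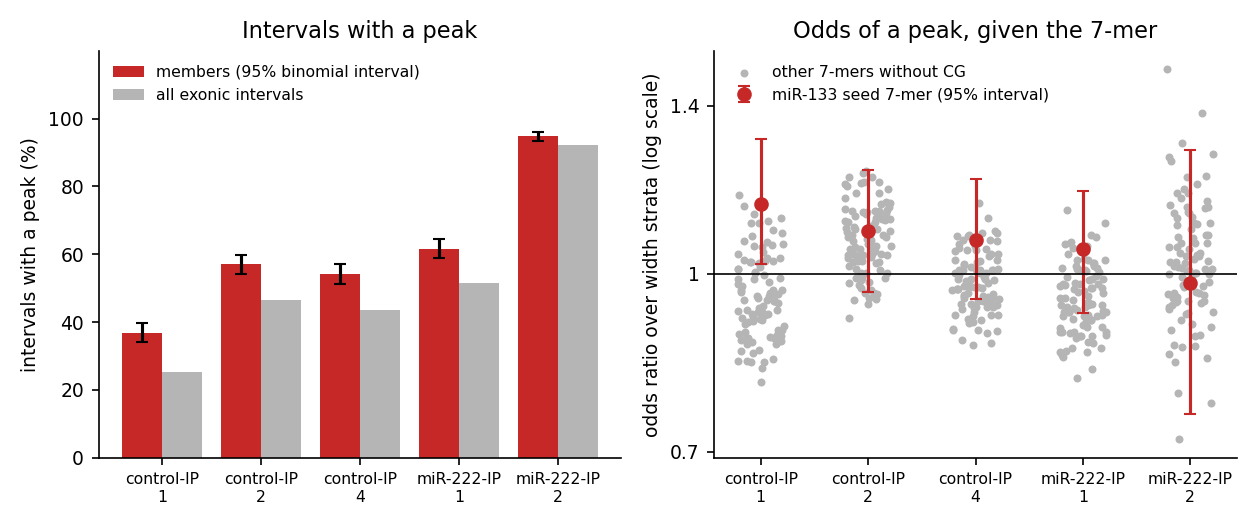
Left, percent of intervals with a peak in each library for the 1222 members (red, 95% binomial intervals) and all exonic intervals (grey). Right, odds ratio of a peak over 10 width strata on a log scale, for the miR-133 seed 7-mer (red, 95% intervals, 0.982 to 1.15) and for the other 7-mers without CG (grey).

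Within a library, members had somewhat higher peaks. The median −log10 p of members was 38.2 in control-IP replicate 1 against 34.1 for other intervals, 44.0 against 36.8 in replicate 2, and 41.0 against 35.7 in replicate 4. For the miR-222-IPs it was 41.9 against 35.8 (replicate 1) and 51.9 against 40.4 (replicate 2). With widths matched by stratum the difference was 0.053 to 0.087 on the log2 scale, ranks 3 to 10 of 100 in the 5 libraries, and ranks 31 to 43 of 210. Between replicates 1 and 2 of the control-IP, members differed from other intervals by −0.070 in the log2 ratio of −log10 p (intervals seen in all 5 libraries). That ratio compares libraries, whereas the differences above lie within each library, so their sizes are not set side by side.

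Of 55 genes listed from general knowledge as reported targets of miR-133, 37 had an exonic interval, and 14 of these (37.8%) had a member, against 10.1% of the 11803 genes with an exonic interval. A gene reported as a target usually carries the site: 24 of the 37 held the 7-mer in their exons. In 13 of these 24 it lay under an interval (54.2%), against 37.9% of the 2863 genes that held it. The evidence for the listed genes is unequal and the list is not independent of the seed.

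Several of these members had peaks in every library, although a peak over a member need not cover its site. Of all 1259 sites, 273 lay wholly under a peak of all 5 libraries. Over the 3'UTR of Dusp1, a phosphatase that turns off MAP kinases (chr17:26505066-26506772), −log10 p reached 146, 167 and 146 in the control-IPs (replicates 1, 2 and 4, the order used from here on) and 138 and 124 in the miR-222-IPs (replicates 1 and 2). Over that of Msn, moesin, which ties actin to the membrane (chrX:96166406-96168465), it was 104, 125 and 105 in the control-IPs and 99.6 and 91.5 in the miR-222-IPs. In both genes all the control-IPs lay above the miR-222-IPs, and with the libraries scaled to a common median the log2 ratio of miR-222-IP to control-IP was −0.54 and −0.82 for Dusp1 and −0.56 and −0.80 for Msn in experiments 1 and 2. The values as listed differed less than these ratios, so part of each came with the scaling. Other members with high peaks had like ratios though their listed values overlapped between the conditions. They were −0.34 and −0.87 for Clta and −0.46 and −0.61 for Rps9.

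For Tgfbr1, a receptor of TGF-β (chr4:47410676-47414873, the widest member), the control-IPs stood at 70.0, 78.6 and 63.9 and the miR-222-IPs at 51.2 and 42.2. Ppp2ca, the catalytic subunit of protein phosphatase 2A (chr11:52121841-52123432), went the other way, with 38.1, 36.5 and 46.0 in the control-IPs and 52.1 and 91.6 in the miR-222-IPs, which after scaling left log2 ratios of 0.10 and 0.40. Over Lasp1, an actin-binding adaptor, the values were 53.8, 96.3 and 74.7 in the control-IPs and 66.8 and 123 in the miR-222-IPs, so the groups overlapped. Mcl1, which blocks apoptosis, and Fscn1, the actin-bundling fascin, also had peaks in all 5 libraries, and there too the groups overlapped. The sites of Dusp1, Tgfbr1 and Mcl1 lay under the peaks of 4 libraries.

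The remaining listed members were seen in fewer libraries. Cnn2 (calponin 2) and Ppp2r2d (a regulatory subunit of phosphatase 2A) lacked a peak only in control-IP replicate 1. Cnn2 stood at 38.5 and 33.8 in control-IP replicates 2 and 4 and at 31.2 and 108 in the miR-222-IPs, with the site itself under the peaks of 2 libraries. The Igf1r member had peaks in control-IP replicate 4 and both miR-222-IPs, with the site under 1 of them, and that of Maml1, a coactivator of Notch, in control-IP replicate 2 and miR-222-IP replicate 2. The member intervals of Fgfr1, Anxa2 and Tagln2 had one only in miR-222-IP replicate 2, at 20.1, 28.8 and 29.3, and the Tagln2 site lay in an intron. The splicing repressors Ptbp1 and Ptbp2 held 1 site each, in the 3'UTR, and in neither did it lie under an interval. Rbm24, a muscle splicing activator, had no member.

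**Figure D4:**
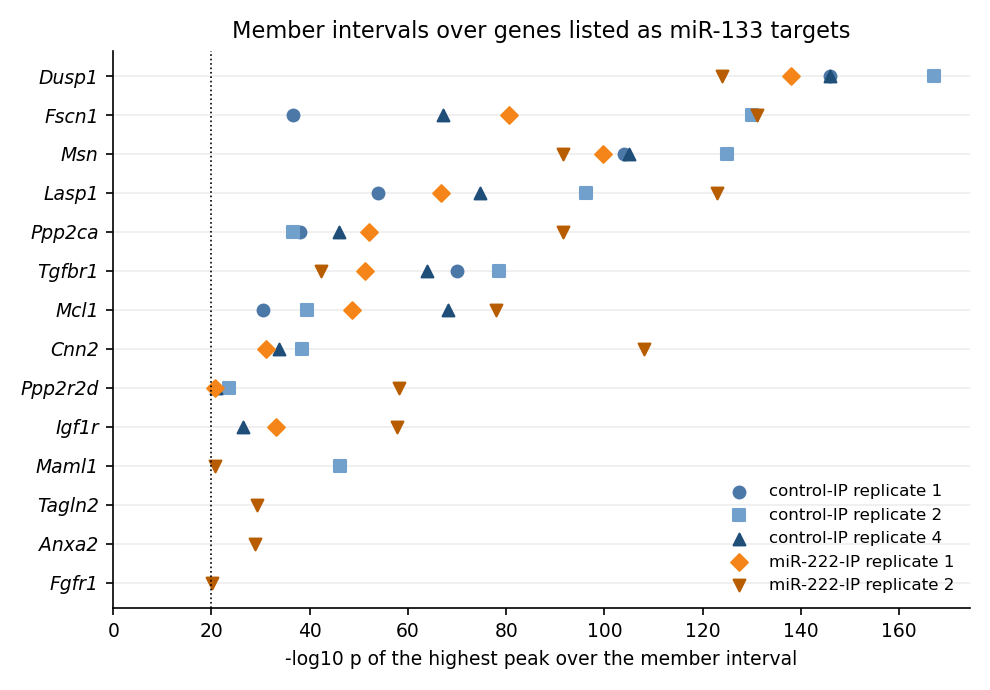
−log10 p of the highest peak of each library over the member intervals of the 14 listed target genes, with the threshold of 20 as a dotted line. Dusp1 and Msn had values above 90 in all 5 libraries, while the members of Fgfr1, Anxa2 and Tagln2 had a peak only in miR-222-IP replicate 2.

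Comparing the conditions asks whether transfection of miR-222 went with a change at miR-133 sites. The paper chose the duplex concentration to limit the enrichment of miR-222 in the miR-222-IPs. For the 367 members with a peak in all 5 libraries, −log10 p was divided by that of the control-IPs of the same experiment after scaling the libraries to a common median. The mean log2 ratio of members was −0.10 in experiment 1 (SD 0.48) and 0.00 in experiment 2 (SD 0.54). The difference of members from other intervals was −0.0852 (−0.136 to −0.0346) in experiment 1, −0.0269 (−0.0832 to 0.0294) in experiment 2, and −0.0560 (−0.0969 to −0.0152) over both, rank 97 of 100 and 193 of 210 from the highest. These bounds treat intervals as independent, which they are not. Unlike the odds ratios, these differences were not matched for width, and members were wider (median 656 bp against 370 bp over all exonic intervals that were not members). When missing peaks were filled with the lowest value of that library's list, so that all exonic intervals entered, the difference turned to 0.0361. The difference of −0.070 between control-IP replicates 1 and 2, given above, arose under the same treatment and is of like size. Members had somewhat higher peaks than other intervals. The members with the highest peaks in every library, named below, all had negative mean log2 ratios, from −0.61 (Clta) to −0.16 (Gm7331). Ttr, among them, had ratios of −0.24 in experiment 1 and −0.57 in experiment 2. Its listed values were nevertheless higher in both miR-222-IPs (248 and 251) than in the control-IPs (213, 243 and 247). How far the scaled ratio depends on peak height over all members was not tested.

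Of the 367, 80 members (21.8%) were lower, after scaling, in both miR-222-IPs than in every control-IP of the experiment, against 18.4% of all intervals with a peak in all 5 libraries. There were 52 (14.2%) that were higher in both, against 17.3%. What part peak height has in these shares was not tested. Permuting the labels within experiments gives 6 arrangements, so no single member can reach an exact p below 0.167.

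The members with the largest ratios carried varied functions. Timm17a, of the protein import machinery of the mitochondrial inner membrane, stood at 34.7, 24.1 and 62.6 in the control-IPs and at 121 and 177 in the miR-222-IPs, with log2 ratios of 1.62 and 0.91 in experiments 1 and 2. Cryab, the chaperone αB-crystallin, which is abundant in muscle, stood at 36.9, 62.5 and 33.0 and at 72.6 and 217, with ratios of 0.23 and 2.12. Epc2, a subunit of a histone acetyltransferase complex, had 2 sites in its member and stood at 36.9, 28.9 and 36.5 and at 97.1 and 113. The transcription factor gene Sp3 (mean log2 ratio 0.95) and Smarce1-ps1, a pseudogene (0.88, site under the peak of 1 library), followed. In Timm17a, Cryab and Epc2 every miR-222-IP exceeded every control-IP, and Cryab was highest in miR-222-IP replicate 2, in which the muscle markers were also highest. Their part in that value was not tested.

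The members with the smallest ratios included genes of macrophages and other leukocytes. Fcrls, an Fc receptor-like gene of mononuclear phagocytes, stood at 100, 103 and 77.4 in the control-IPs and at 68.7 and 48.1 in the miR-222-IPs. Il21r, a cytokine receptor, stood at 33.3, 113 and 42.8 and at 32.6 and 48.6. The 3'UTR of Igf2, a growth factor of differentiating muscle, which shares this interval with the readthrough gene Gm49394, stood at 127, 137 and 138 and at 118 and 65.5, and Tgfbr1, given above, was also among them. The highest value of a leukocyte marker in each library was 196 to 236, and the conditions overlapped. Before scaling, Il21r overlapped between the conditions too. In experiment 2 its miR-222-IP (48.6) lay above the control-IP (42.8), and the log2 ratio of −0.41 was negative only after scaling. In experiment 1 the ratio was −1.42, with 32.6 in the miR-222-IP beside 33.3 and 113 in the control-IPs. The site of Fcrls lay in an intron within the interval, and that of Igf2 lay under the peak of 1 library only, since an interval joins the peaks of all.

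**Figure D5:**
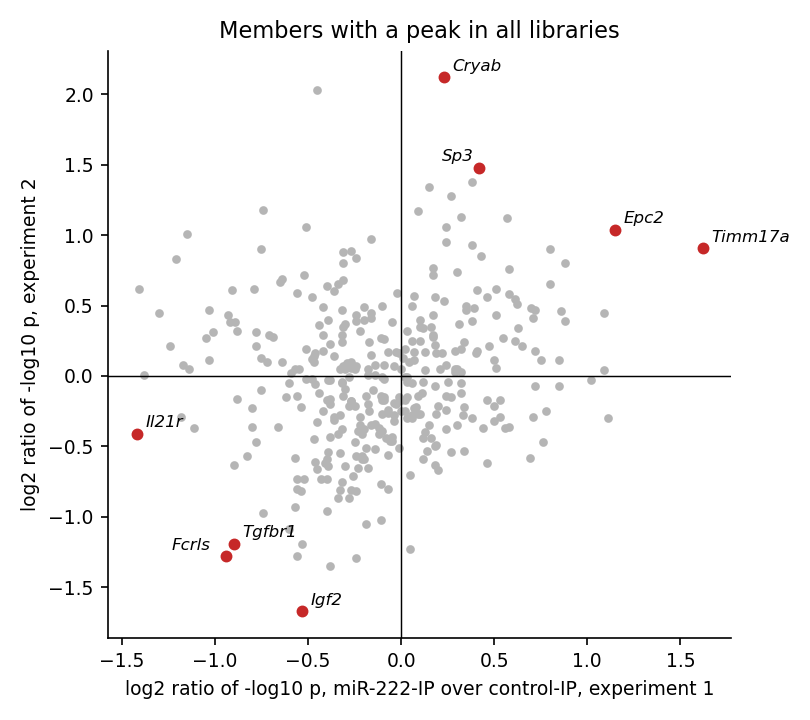
log2 ratio of −log10 p, miR-222-IP over the mean of the control-IPs, in experiment 1 and experiment 2 for the 367 members with a peak in all 5 libraries. Red points are the 8 members with the most extreme mean ratios, 4 in each direction, among those beyond every control-IP in both experiments after scaling, such as Timm17a (1.62 and 0.91) and Igf2 (−0.53 and −1.67).

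A peak in a miR-222-IP and in no control-IP was seen for 354 members (29.0%), against 38.7% of all exonic intervals. The odds ratio over width strata was 0.913 (0.800 to 1.04), rank 91 of 100 and 160 of 210, and it rose to 1.15 when an equal number of the strongest peaks was taken from each library. Most of these peaks were of miR-222-IP replicate 2: without it, 71 members (5.81%) had a peak in a miR-222-IP and in no control-IP, against 7.51% of all. A peak in both miR-222-IPs and no control-IP was seen for 62 members (5.07%) against 6.61%, and a peak in a control-IP and no miR-222-IP for 44 (3.60%) against 6.13%.

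The highest of the 62 was Gm4939, at 38.3 in the first miR-222-IP and 80.0 in the other. It was followed by Trappc5, of a vesicle tethering complex (38.0 and 54.2), and Nfatc2, a transcription factor that answers to calcium (37.7 and 54.0). Arhgef6, Med9, Anxa6, Mier1, AC115768.2, Slc25a30 and the leukocyte receptor gene Treml2 completed the first 10, the lower of their values being 31.9 to 35.2. In miR-222-IP replicate 1 all 10 lay at 32.5 to 38.9, and a control-IP just short of the threshold of 20 would look the same as one with no signal.

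Among the 10 members with the highest peaks in every library were a gene of a ribosomal protein and pseudogenes of others. Clta, the clathrin light chain, stood at 252, 268 and 265 in the control-IPs and at 265 and 219 in the miR-222-IPs, and its 3'UTR site is an 8-mer with a match to bases 13 to 16. Rps9, a protein of the small ribosomal subunit, stood at 186, 218 and 180 and at 189 and 178. Ttr, which carries thyroid hormone in the blood, stood at 213, 243 and 247 and at 248 and 251, with its site under the peak of 1 library. The other 7 (Rps6-ps4, Rpl18-ps2, Rpl3-ps1, Gm5805, Gm10123, Gm7331 and Gm11808) are pseudogenes or unnamed gene models, and Gm7331 and Gm11808 have the same window around the site, atgtgaccccgGGACCAAataaagtcccc. Reads of such copies cannot be told from those of the parent gene, so these values are uncertain. Of all members, 109 (8.92%) lay over exons of pseudogenes only, against 5.17% of exonic intervals, and 78 shared the 29-base window of a site with another member.

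Members over muscle genes had their highest peaks in miR-222-IP replicate 2, and those of 5 genes had a peak in no other library. Over all members 23.2% had a peak only in that library, and over all exonic intervals 31.2%. Of 70 genes of contraction and myogenesis, 62 had an exonic interval and 9 of them (14.5%) a member, against 10.1% of genes. Among the 22 that held the 7-mer in their exons, 9 had it under an interval (40.9%), against 37.9% of all genes that held it. None of the members over these muscle genes had a peak in all 5 libraries. Titin, Ttn, the giant spring of the sarcomere, had 8 members among its 62 intervals, the most of any gene, all with coding sites and seen in a single library, miR-222-IP replicate 2, at 25.4 to 54.1. The member intervals of the myosin heavy chains Myh1, Myh3 and Myh8 and of Xirp1, an actin-binding protein, likewise had a peak only there, at 25.7 to 87.9. Outside its member, Myh3 had peaks in all 5 libraries (67.2, 51.6 and 62.0 in the control-IPs, 75.4 and 102 in the miR-222-IPs), and Myh8 had peaks in 3. Myh1 and Myh8 have like sequences around the site, and reads may be split between them.

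Lmod2, a nucleator of thin filaments, stood at 23.2 in control-IP replicate 1 and at 33.6 and 200 in the 2 miR-222-IPs, with the site itself under the peak of 1 library. Casq2, the calcium store calsequestrin, stood at 34.1 in control-IP replicate 2 and at 26.6 and 140 in the miR-222-IPs. Capn3 and Nes had peaks in control-IP replicate 4 and both miR-222-IPs, highest in replicate 2 (77.5 and 85.9). The same library had the highest muscle markers, and whether it differs in RNA abundance, depth or Ago2 binding cannot be told apart from these lists.

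Of 55 splicing regulators, 53 had an exonic interval and 6 a member (11.3%), close to the 10.1% of all genes. Elavl1, the RNA-stabilizing HuR, had an 8-mer in its 3'UTR and stood at 42.9, 40.2 and 36.1 in the control-IPs and at 57.2 and 80.9 in the miR-222-IPs. Raver1, a cofactor of PTB, also with a 3'UTR 8-mer, stood at 68.3, 136 and 108 and at 90.3 and 161, and Hnrnpu, with a coding 8-mer, at 39.8, 22.4 and 49.1 and at 69.1 and 60.7. For Elavl1 and Hnrnpu every miR-222-IP lay above every control-IP as listed, and for Raver1 the groups overlapped. After scaling, the log2 ratios in experiments 1 and 2 were 0.07 and 0.57 for Elavl1, and 0.71 and −0.29 for Hnrnpu, whose direction in experiment 2 thus turned with the scaling. Ptbp3, a paralogue of PTB, had a 3'UTR 8-mer with peaks of 23.6 and 60.2 in control-IP replicates 1 and 2 and of 41.7 and 26.7 in the miR-222-IPs. The member intervals of Tra2a and Matr3 had a peak only in miR-222-IP replicate 2, while both genes had other exonic peaks in all 5 libraries.

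Of 50 genes of the actin cytoskeleton and small GTPases, 48 had an exonic interval and 10 a member (20.8%), against 10.1% of all genes. Of these 10 genes, Cnn2, Fscn1, Lasp1, Msn and Tagln2 are also on the target list, which is not independent of the seed. Among the 18 that held the 7-mer in their exons, 9 had it under an interval, against 1084 of 2863 (37.9%) over all genes. The actin genes outside the target list were not tested separately. Myh9, the heavy chain of non-muscle myosin, carried a 3'UTR 8-mer paired up to base 11 of the miRNA and stood at 28.4, 68.2 and 84.4 in the control-IPs and at 70.9 and 115 in the miR-222-IPs. Ezr, ezrin, stood at 25.4, 65.6 and 36.7 and at 75.5 and 49.1. In both the groups overlapped. Pfn2, Limk1 and Anln had peaks in 2 or 3 libraries, at 20.9 to 54.2.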

How the data were processed

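The authors mapped paired reads to mm10 (SOAPSplice), ran MACS2 with its defaults and kept peaks with −log10 p above 20. The deposited lists, one per library, give positions and −log10 p per peak, and no read counts. No input library was analysed here, so a peak can follow RNA abundance as well as binding. Peaks of the 5 libraries were merged with Python 3.11.15 (numpy 2.4.6, pandas 2.3.3, pysam 0.24.0) where they overlapped or touched, an exon of GENCODE M21 counted from 1 bp of overlap, and sequence was read from GRCm38. The lists give no depth, so intervals cover counting error only. Ranks are over the 210 7-mers of equal base composition or the 100 without CG, and are descriptions. Odds ratios are Mantel-Haenszel ratios over 10 width strata with 95% Robins-Breslow-Greenland intervals. Ratios used intervals with a peak in all 5 libraries, scaled by each library's median log2 difference from the mean of the 5. Because the lists hold no counts, no count model could be fitted. Members, gene lists and tests were chosen with earlier results of these data known, and the comparison of 7-mers in exons under peaks was added after seeing the data. Named genes are listed targets with a member, the 10 strongest members in every library, members with the most sites, the 5 largest and smallest ratios, the 10 strongest with peaks in both miR-222-IPs only, genes with the most members, and listed splicing or muscle genes; members of those lists with peaks in fewer than 5 libraries were named after their values were seen. One gene that this rule names is not reported here. The code was tested on simulated data.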

Additional observations from a re-analysis of the deposited data

How the results depend on the processing

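The 3'UTR share of sites, the share of 3'UTR 7-mers under an interval, the odds ratios and the ratio difference were recomputed with stricter peaks, other merging, fewer libraries and other sequence choices. Peaks of at least 50 gave 4.36% of intervals with the 7-mer, 39.1% of sites in 3'UTRs and 25.3% of 3'UTR 7-mers under an interval. The 6-mer GACCAA gave 11.4%, 28.6% and 37.8%. Searching only exon bases gave 2.91% and 36.9%, exons of protein-coding genes 36.4% of sites in 3'UTRs, the opposite strand 2.43%, and all 6 libraries 6.74%. Leaving out each library gave 31.0 to 41.3% of 3'UTR 7-mers under an interval, lowest without miR-222-IP replicate 2. Without width strata the odds ratios were 1.77, 1.55 and 1.55 for the control-IPs (replicates 1, 2, 4), 1.53 and 1.57 for the miR-222-IPs, and 0.636 for a miR-222-IP and no control-IP. With equal numbers of the strongest peaks they were 1.21 in miR-222-IP replicate 1 and 1.15 for a miR-222-IP and no control-IP. Filling missing peaks with the lowest listed value turned the ratio difference to 0.0361. The other alternatives kept each value within the 95% interval of the reported one. Peak lists with no depth limit what can be said of members near the threshold of 20. No paired analysis was possible because the replicate numbers do not pair the libraries, replicate 2 of the control-IP and of the miR-222-IP being of different experiments. The experiment served as the block of the ratios instead, and without it the difference was −0.0646. With the 7-mers that hold CG left out, the share of intervals moved from rank 91 of 210 to 91 of 100, the odds ratio of control-IP replicate 1 from 22 of 210 to 2 of 100, and the share of 3'UTR 7-mers under an interval from 42 of 210 to 2 of 100.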

Other observations

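Of the 1259 sites, 329 (26.1%) also paired with base 9 of the miRNA, against a median of 26.7% over the 100 7-mers without CG (rank 55). There were 24 that paired without a gap up to base 11 and 5 up to base 12. The 2 longest, up to base 13, were the coding site of Sp3 and the 3'UTR site of Tmem164. Sp3 had peaks in all 5 libraries (24.8, 66.1 and 21.4 in the control-IPs, 73.3 and 90.1 in the miR-222-IPs), and the Tmem164 member only in miR-222-IP replicate 2 (43.2). Rc3h1, a repressor that binds stem-loops in messenger RNAs, and Cttn, the actin regulator cortactin, paired up to base 12, as did Eif1b.

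Beside Ttn, the genes with the most members were Macf1, which links actin with microtubules (5 of its 64 exonic intervals), and Anxa6, Edem1, Mrc2, Prex1, Slc1a2 and Trip12 with 3 each. One of the Macf1 members had a peak in all 5 libraries (20.7, 96.0 and 21.4 in the control-IPs, 29.4 and 57.4 in the miR-222-IPs). Members with 2 sites included Purb, a repressor of muscle gene transcription, at 122, 113 and 85.6 in the control-IPs and 117 and 82.9 in the miR-222-IPs, and Pald1, at 107, 79.1 and 119 and at 135 and 184. No interval lay over the genes of miR-133 or miR-206 themselves. In the wide list of control-IP replicate 3, peaks overlapped 498 of the 528 members on its chromosomes (94.3%), and also 94.3% of the other exonic intervals there.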
